A study of Mus musculus with 16 samples.

Results

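Hnrnpa2b1 and Cbx3 are neighbouring mouse genes transcribed away from each other from a shared promoter region on chromosome 6. All 50 bp windows listed between positions 51406000 and 51437000 (genome build mm9, 31 kb) in 9 chromatin immunoprecipitation (ChIP-seq) libraries were taken, which gave 151 of the 1459926 windows listed in all. The mouse embryonic stem cell line V6.5 was turned into neural progenitors, with 4 days as embryoid bodies, and the cells were crosslinked in 1% formaldehyde. Untreated cells gave 2 Cbx3 libraries (sets 1 and 2) and 1 library of RNA polymerase II (Pol II). Cells transfected for 72 hours with a control siRNA against luciferase or with an siRNA against Cbx3 gave 1 library per arm for each of Pol II, Med26 and Cdk8. With 1 library per arm, differences between arms could not be checked against replicates or tested. No values of the 7 input libraries were analysed here. The neural identity of the cells was not checked here, since marker genes were not placed on mm9.

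Cbx3 encodes HP1 gamma, a chromodomain protein that reads methylated histone H3 in heterochromatin and is also found over transcribed genes. Hnrnpa2b1 encodes an abundant RNA-binding protein that packages and processes pre-mRNA. Divergent promoters of this kind usually lie in a CpG island, a stretch rich in CpG dinucleotides, and are active in most tissues. DNA from the human counterpart of this promoter pair is used in expression vectors as a ubiquitous chromatin opening element, which resists silencing. Med26 is the Mediator subunit that recruits elongation factors to Pol II, and Cdk8 is the kinase of the detachable module of Mediator. An siRNA acts on the mature mRNA, so Pol II at the Cbx3 gene is not a measure of the knockdown, and the level of Cbx3 after the siRNA was not analysed here.

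The promoter DNA is shown because the results turn on how Pol II and Mediator are listed around the shared promoter. RefSeq (GRCm38.p6) gives 4 promoter windows of 300 bases for the pair, 2 per gene, each from 250 bases before to 50 after a start. On that build the nearest starts of Hnrnpa2b1 (minus strand) and Cbx3 (plus strand) are 722 bases apart. GRCm38 positions were not converted to mm9, so no ChIP window is assigned to a start or an exon here. The 250 bases before the first start of each gene follow, 5′ to 3′ on the gene's own strand, with each CpG in capitals. They are chr6:51469895-51470144 for Hnrnpa2b1 and chr6:51470366-51470615 for Cbx3, both on GRCm38.p6.
Hnrnpa2b1: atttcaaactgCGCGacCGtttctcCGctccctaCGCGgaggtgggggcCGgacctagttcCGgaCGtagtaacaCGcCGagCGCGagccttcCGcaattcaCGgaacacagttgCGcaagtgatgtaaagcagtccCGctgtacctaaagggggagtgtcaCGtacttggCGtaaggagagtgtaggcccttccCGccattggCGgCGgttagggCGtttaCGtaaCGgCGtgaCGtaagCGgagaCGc
Cbx3: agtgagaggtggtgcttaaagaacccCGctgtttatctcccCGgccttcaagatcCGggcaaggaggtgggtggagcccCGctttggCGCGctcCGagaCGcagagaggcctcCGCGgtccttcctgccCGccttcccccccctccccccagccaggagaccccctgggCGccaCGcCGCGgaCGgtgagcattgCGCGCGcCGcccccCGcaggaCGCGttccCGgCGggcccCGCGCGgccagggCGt
Each of these stretches holds 29 CpG. The full 300-base windows of the pair hold 32 to 34 CpG, against a median of 7 over all 32851 RefSeq promoter windows. For the first window of either gene, 7.73% of all promoter windows hold at least its 34. G and C make up 75.3% of the first Cbx3 window and 60.0% of the first Hnrnpa2b1 window. No TATAAA was found on either strand of the 4 windows, and 13.6% of all promoter windows hold it. CCAAT (37.4% of all promoter windows) and TGACGT (7.51%) each occurred once in the first Hnrnpa2b1 window, 51 and 18 bases before the start, and in neither Cbx3 window. GGGCGG (35.7%) occurred 2 times in the first Cbx3 window and in no Hnrnpa2b1 window. CACGTG (7.15%), TCTCGCG (2.56%) and GCGCATG (3.91%) were not found. All were searched on both strands, and none of the matches overlapped another motif.

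**Figure D1:**
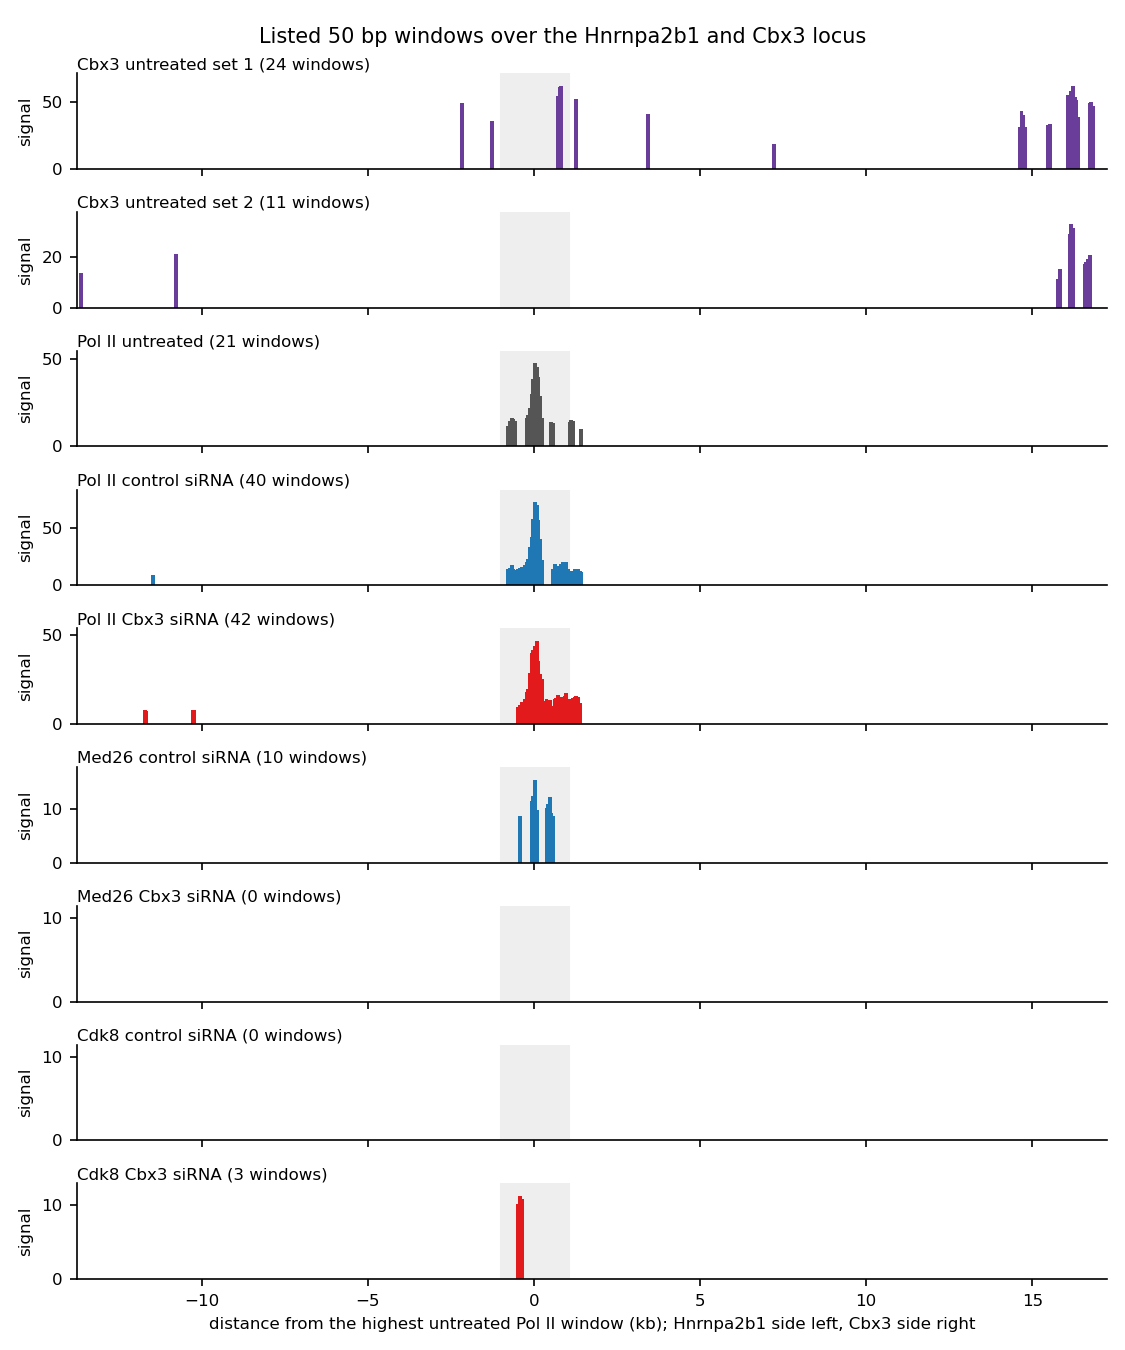
Signal of each listed 50 bp window (bars, drawn wider than 50 bp to be visible) against distance in kb from the highest untreated Pol II window, for the 9 libraries; each vertical axis has its own scale and grey marks the promoter segment. Pol II, Med26 and Cdk8 windows crowd the promoter, while the windows shared by the 2 Cbx3 sets lie over 16 kb away on the Cbx3 side.

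Pol II was concentrated at the shared promoter in all 3 of its libraries and was nearly unlisted over the rest of the locus. The highest untreated window, from 51419751 to 51419800, served as the reference point and was taken to mark the promoter, with no mm9 annotation to place it. The promoter segment was 1000 bp to either side of it, and the rest of the locus was called the Hnrnpa2b1 side (lower positions) and the Cbx3 side. The promoter segment held 17 of the 21 listed windows in untreated cells, 31 of 40 under control siRNA and 31 of 42 under Cbx3 siRNA. The remaining windows lay on the Cbx3 side within 1400 bp of the reference point, or, at low signal, far out on the Hnrnpa2b1 side. Those far windows numbered 1 under control siRNA (signal 8.67) and 4 under Cbx3 siRNA (7.37 to 7.77), with none in untreated cells. Outside the promoter and its flanks the genes thus carried little listed Pol II, although a window missing from a list can still hold signal.

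The main Pol II peak was among the strongest of each library. The highest window had a signal of 47.7 in untreated cells, 72.2 under control siRNA and 46.5 under Cbx3 siRNA. It was the same window in untreated and control siRNA cells and the next one towards Cbx3 under Cbx3 siRNA. The region around it ranked 147 of 8183 untreated Pol II regions by highest window, 134 of 16073 under control siRNA and 350 of 16426 under Cbx3 siRNA. A lower shoulder of Pol II followed in the direction of Cbx3. Its highest window reached 15.1 in untreated cells (1100 bp from the reference point), 19.98 under control siRNA (850 bp) and 17.4 under Cbx3 siRNA (950 bp). Within each library the peak was therefore 3.15, 3.62 and 2.68 times as high as the shoulder, a ratio that does not depend on scaling between libraries. On a signal per read inferred from the values, the shoulder maxima equal only about 14.4, 18.2 and 15.8 reads. The counting error of the ratios was not computed, so no difference between libraries is read from them.

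Pol II at the locus of the siRNA target was lower after Cbx3 siRNA in the values as deposited, by about as much as Pol II elsewhere in the genome. Summed over the promoter segment, the signal was 772 under control siRNA and 598 under Cbx3 siRNA, a log2 difference of -0.37. Among windows shared by the arms, the median log2 difference was -0.35 in the promoter segment and -0.29 over all 74288 of the genome. With that genome-wide shift subtracted the segment's difference was -0.08, and with each library divided by its summed listed signal it was 0.027, so its sign depends on the scaling. On the Cbx3 side the sums were 103 and 98.3.

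By window, few differences at the locus were large. Of the 32 locus windows listed in both siRNA arms, 2 were at least 1.5-fold lower after Cbx3 siRNA and none was at least 1.5-fold higher, against 24.2% and 2.92% of such windows genome-wide. None was 2-fold lower, against 4.99%. The 2 lower windows lay in the main peak. The window from 51419751 to 51419800 went from 72.2 to 43.4 (log2 difference -0.73), and that from 51419851 to 51419900 from 56.5 to 35.0 (-0.69). The highest window of each arm differed by -0.64. If a fixed number of value steps stands for 1 read, which was inferred from the values and is least sure for Pol II, these windows held about 66 and 42 reads. The exact binomial interval of that log2 difference runs from -1.25 to -0.07 (95%, counting error only) and includes the genome-wide median of -0.29.

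Among Pol II regions the locus was not unusual. Over 11325 merged regions listed in both arms the median log2 difference of the highest window was -0.29, and the locus lay at percentile 17.8. Of these regions, 21.6% were at least 1.5-fold lower. In the highest decile by control siRNA signal, which holds the locus, the median was -0.44, 31.4% of regions were at least 1.5-fold lower, and the locus lay at percentile 24.8. The decile was chosen by the control signal itself, which enters the difference, and whether that choice lowered its median was not tested. In the control against untreated pair, the highest decile by untreated signal also had a lower median, 0.42, against 0.66 over all regions. Nothing about strong regions is therefore read from the decile. By summed signal the region's difference was -0.33, against a median of -0.43 over all regions (percentile 57.2). The histogram of region differences shows the locus inside the bulk of either distribution.

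**Figure D2:**
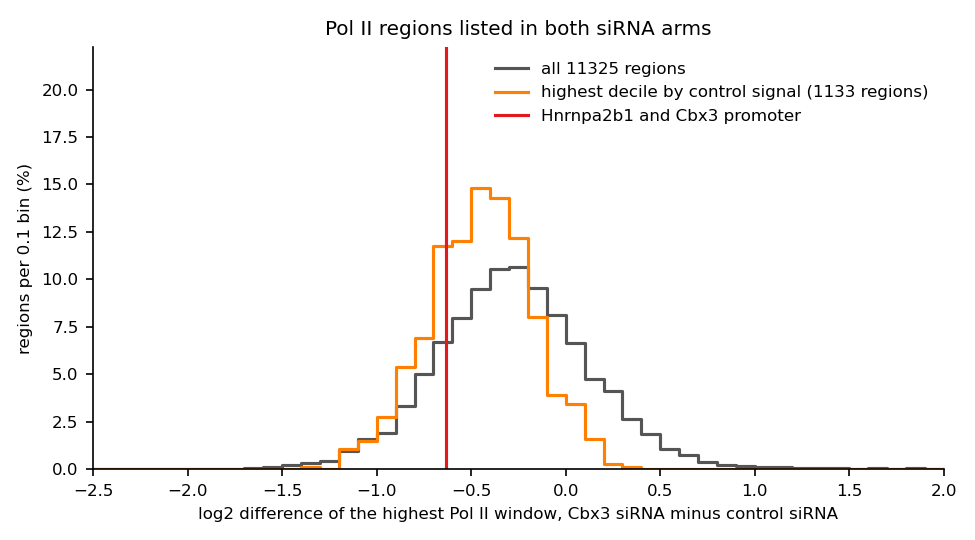
Histogram of the log2 difference of the highest Pol II window, Cbx3 siRNA minus control siRNA, for all 11325 regions listed in both arms (grey) and the highest decile by control signal (orange), as percent of regions per bin of 0.1. The red line marks the Hnrnpa2b1 and Cbx3 promoter at -0.64, inside both distributions.

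In the values as deposited the window differences varied along the promoter, and whether they varied beyond counting error was not tested. In the main peak (15 windows, 51419251 to 51420000) the median log2 difference was -0.38, and 1 window was higher after Cbx3 siRNA. In the shoulder towards Cbx3 (51420301 to 51421200), 17 windows were listed in both arms, the median was -0.15 and 6 were higher, by up to 0.21. All 6 lay on the Cbx3 side, where 6 of 7 windows of both libraries were higher, against 25.7% of windows genome-wide. Neighbouring windows share reads, so these 7 are not independent values. Their highest signals equal about 13.1 reads under control siRNA and 14.1 after Cbx3 siRNA on the inferred scale. Each rise is thus small in reads, and its counting error was not computed. The 25.7% covers windows of any signal and was not matched to weak ones. After subtraction of the genome-wide median all 7 are positive, since the lowest of them was -0.13. The range of window differences within the region, 0.94, was nonetheless narrower than in most regions. Over 275 regions with at least 20 shared windows the median range was 1.49, and the locus lay at percentile 8. These regions were not matched to the locus in signal or number of windows, so the percentile does not show a more even difference.

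The lists also differed in which windows they held. Of the 40 control siRNA windows of the locus, 8 were not listed after Cbx3 siRNA, against 36% genome-wide, and 10 of the 42 windows listed after Cbx3 siRNA were absent from the control list, against 26.5%. Neither share is above its background. The changes lay in runs. The 6 windows from 51418951 to 51419250 had signals of 13.2 to 17.9 under control siRNA, 5 of them were listed in untreated cells at 11.8 to 16.5, and none was listed after Cbx3 siRNA. The 6 windows from 51420001 to 51420300, between the main peak and the shoulder, were listed after Cbx3 siRNA at 8.84 to 14.0. None of them was listed under control siRNA, and 1 was in untreated cells (14.0).

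Absence from a list at that gap does not show low signal. The last control siRNA window before the gap had a signal of 21.98, although the lowest value listed anywhere in that library was 6.01. Over the 9643 unbroken stretches of at least 5 control siRNA windows, the outermost windows had a median of 12.9, and 8.42% were as high as 21.98. Signal was falling steeply there, with 56.5, 40.4 and 21.98 in successive windows. The stretches were not matched for slope, so the 8.42% does not decide whether signal in the gap was low. In untreated cells the last window before the gap had a signal of 16.2, and 43.4% of outermost windows were as high. The rule by which windows were listed is not given in the sources used here.

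**Figure D3:**
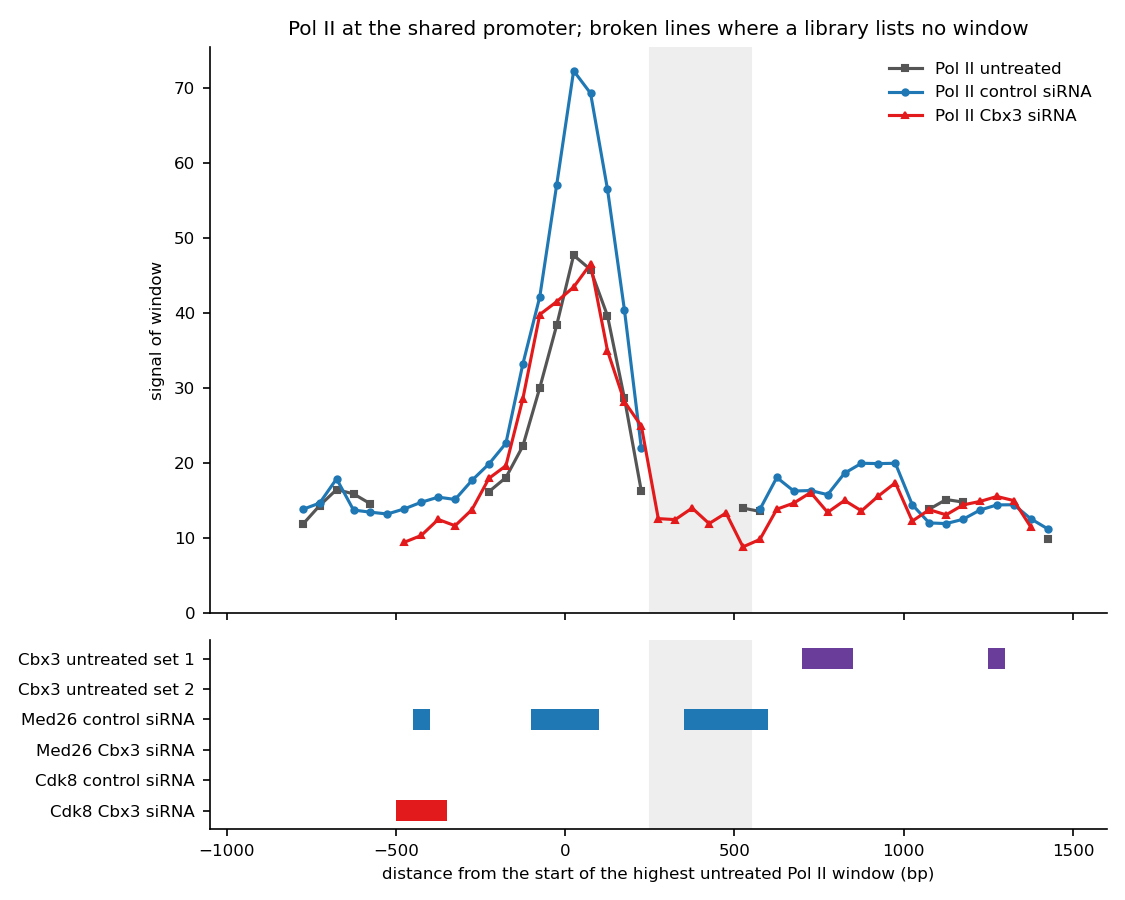
Top, Pol II signal per 50 bp window in untreated, control siRNA and Cbx3 siRNA cells against distance in bp from the reference window, with lines broken where a library lists no window; bottom, windows listed for Cbx3, Med26 and Cdk8. The grey band marks the 6 windows that Pol II lists after Cbx3 siRNA and not under control siRNA, 4 of which Med26 lists under control siRNA.

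The other Pol II pair, control siRNA against untreated cells, has no knockdown. The highest window rose from 47.7 to 72.2 in the values as deposited, a log2 difference of 0.60. The median over all 32821 windows of both libraries was also 0.60. On the inferred scale the highest windows held about 45 and 66 reads. The exact binomial interval of the log2 ratio of those read counts runs from -0.02 to 1.13. That interval is not on the scale of the 0.60, because the counts were not weighted by the signal of 1 read. In the promoter segment the summed signal was 404 in untreated and 772 in control siRNA cells. Most of that gap came from windows listed in 1 library: over windows of both, the log2 difference was 0.42 rather than 0.94. Divided by summed listed signal it was -0.83. In the locus 2 of 20 shared windows were at least 1.5-fold higher, against 51.5% genome-wide. Of the 40 control siRNA windows, 20 were not in the untreated list, against 71.7%. In the main peak all 10 shared windows were higher under control siRNA, while in the shoulder 2 of 5 were, against 88% genome-wide. The signal of 1 read differs between these libraries (1.053 and 1.10), and the pair shares its control library with the siRNA comparison. Main-peak height after Cbx3 siRNA (46.5) was thus nearer to untreated (47.7) than to control siRNA cells, but the scales were not shown to be comparable.

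Med26 was listed at the promoter under control siRNA alone. Its 10 windows fell into 3 groups. A lone window lay at 51419301 (signal 8.68). The second group, 4 windows from 51419651 to 51419850, lay under the Pol II peak and held the highest value, 15.5, in the same window as the Pol II maximum. The third group, 5 windows from 51420101 to 51420350, reached 12.3. Of that group, 4 windows lay in the gap of control siRNA Pol II, so 6 of the 10 Med26 windows were listed for Pol II under control siRNA and all 10 were after Cbx3 siRNA. By highest window the promoter ranked 629 of 5990 Med26 regions.

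After Cbx3 siRNA no Med26 window was listed in the locus. The loss of 10 of 10 windows matches what the library did elsewhere, as 93.9% of all control Med26 windows were not listed again. Among control windows with a signal of at least 15.5, that of the highest window here, 74.6% were not listed again. Among those of at least 8.68, the lowest value here, 91.3% were not. The lowest value in either Med26 library was 6.01. If the unlisted windows held that value, 35.4% of the pair's summed Med26 signal at the promoter would lie in the Cbx3 siRNA library, instead of 0%. A value of 16 reads in the highest window, on the inferred signal of 1 read, has an exact Poisson interval of 9.15 to 26.0.

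Cdk8 showed the opposite listing. None of its windows lay in the locus under control siRNA, and 3 did after Cbx3 siRNA, from 51419251 to 51419400, with signals of 10.2, 11.3 and 10.8. They started 400 to 500 bp from the reference point towards Hnrnpa2b1, around the lone Med26 window and on the flank of the Pol II peak. Genome-wide, 77.5% of Cdk8 windows listed after Cbx3 siRNA were absent from the control list, so such a listing was common over the whole list. Among windows with a signal of at least 11.3, that of the highest window here, 32.5% were absent from the control list. If the unlisted control windows held the lowest value of that library, 6.01, the Cbx3 siRNA library would hold 64.1% of the pair's summed Cdk8 signal at the promoter, instead of 100%. The highest of the 3 windows equals 8 reads on the inferred scale (exact Poisson interval 3.45 to 15.8), which leaves the Cdk8 listing resting on few reads.

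Cbx3 protein at its own locus was listed mainly away from the Pol II peak, and its 2 libraries differed over the promoter. Set 1 listed 24 of the 620 windows of the locus (3.87%), and set 2 listed 11 (1.77%), against 1.94% and 0.495% of windows along chromosome 6. In set 1, 3 windows from 51420451 to 51420600 had signals of 54.2, 61.2 and 61.4, and another at 51421001 had 52.3. All 4 lay in the Pol II shoulder, the first 3 inside the promoter segment and the last beyond it. At those windows both siRNA arms listed Pol II and untreated cells did not. Set 2 listed no window within 2000 bp of the reference point. No Cbx3 window of either set lay in the main Pol II peak or in a Med26 or Cdk8 window. The set 1 region at the promoter ranked 7894 of 419145 by highest window, with about 15 reads on the inferred scale.

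Both Cbx3 sets listed a cluster near the upper end of the locus. Set 1 held 16 windows and set 2 held 9 from 51434351 to 51436600, with highest values of 62.0 and 33.2. They shared 4 windows, those starting at 51435851, 51435901, 51435951 and 51436451. In the first 3 the signal was 47.6, 57.8 and 62.0 in set 1 and 29.5, 33.2 and 31.8 in set 2. The 4 shared windows were all the windows of the locus listed in both sets, 4 of 24 in set 1 and 4 of 11 in set 2, against 3.47% and 13.1% genome-wide. The first 3 of the 4 are adjacent and share reads, so the 4 are not independent values. The first of them started 14650 bp beyond the last Pol II window, and no Pol II, Med26 or Cdk8 window was listed there. Whether the cluster lies inside the Cbx3 gene or beyond its end was not determined, because no mm9 annotation was used. Signal particular to Cbx3 cannot be told apart there from signal that an input would also show.

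The promoter region as a whole (51418951 to 51421200) was listed in 6 of the 9 libraries, all but Cbx3 set 2, Med26 after Cbx3 siRNA and Cdk8 under control siRNA. Of 525774 regions merged over all libraries, 186 had that same set of libraries. By listed length over the 9 libraries, on a scale of log2(1 + bp), the closest to it were on chromosome 4 from 57968451 to 57970700 (Euclidean distance 1.205) and on chromosome 14 from 35361551 to 35362800 (1.208). They were followed by chromosome 4 from 40669101 to 40670300 (1.80), chromosome 10 from 12587801 to 12589550 (2.15) and chromosome 2 from 24774601 to 24775450 (2.24). In the closest, Med26 was listed over 850 bp under control siRNA, against 500 bp at the Hnrnpa2b1 and Cbx3 promoter, and Pol II over 1500 and 1450 bp in the control and Cbx3 siRNA arms, against 1950 and 1900 bp.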

How the data were processed

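Each deposited file lists 50 bp windows with a signal value that the authors computed and scaled in a way not given in the sources used here. Bowtie and the build mm9 are named per the submitters' processing notes. How windows were tested, at which threshold and whether against the inputs is likewise not given. Values are whole multiples of 1 step per library, and 50 steps were read as 1 read covering a window (a signal of 1.10 in both siRNA Pol II libraries, 0.962 in both Med26 and 1.41 in both Cdk8 libraries). Total reads per library are unknown, and the lists hold 2721 to 923942 windows. Values within an siRNA pair were compared as deposited, and intervals cover counting error only. Windows separated by at most 200 bp formed 1 region, ranked by its highest window. In sums, unlisted windows counted as 0.

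Only the 2 member genes are named. Promoter segment, gene sides and the rule for the 5 most alike regions were set together with the alternatives, while the main peak, gap and shoulder were bounded after the windows were seen. The members and lists were chosen with earlier results of these data known. Merging, step recovery and fold shares were tested on simulated data. Tools were matplotlib 3.10.9, scipy 1.17.1, pandas 2.3.3, numpy 2.4.6 and Python 3.11.15. Positions count from 1.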

Additional observations from a re-analysis of the deposited data

Results flagged for a closer look

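The listing of Med26 and Cdk8 at the promoter changed in opposite directions under the same contrast. After Cbx3 siRNA the number of listed windows changed by -10 for Med26 (from 10 to 0) and by 3 for Cdk8 (from 0 to 3). Such changes were common over the whole lists: 93.9% of all control Med26 windows were not listed after Cbx3 siRNA, and 77.5% of Cdk8 windows listed after Cbx3 siRNA were absent from the control list. Changes the other way were common too. Of control Cdk8 windows 75.3% were not listed after Cbx3 siRNA, and 65% of Med26 windows listed after Cbx3 siRNA were absent from the control list. Among windows at least as strong as the highest of the locus, the shares of 93.9% and 77.5% fell. They were 74.6% for Med26 (signal of 15.5 or more) and 32.5% for Cdk8 (11.3 or more). At the lowest Med26 value of the locus or higher (8.68 or more), the Med26 share was 91.3%. These sets have no upper bound, so they also hold windows stronger than those of the locus. No window of the locus was listed in both arms for either factor, so no change of signal within a window was measured. With 1 library per factor and arm, this opposition was not tested. The Med26 arms had inputs of their own per the labels, so a difference between preparations cannot be told apart from one between factors.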

How the results depend on the processing

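Promoter Pol II in the siRNA pair was -0.37 (log2) as reported and changed sign to 0.027 when each library was divided by its summed listed signal. Under the other 7 alternatives (shared windows, unlisted windows at the lowest value, the median shift, the highest window, other widths and anchor) it ran from -0.64 to -0.08. The alternative anchor, the highest control siRNA Pol II window, was the reference window itself, so it could change no value in any comparison. Control siRNA against untreated Pol II was 0.94 and turned to -0.83 with summed signal; the other 7 gave 0.33 to 0.94. Division by summed listed signal subtracts the log2 difference of those sums over the genome. That was -0.40 in the siRNA pair and 1.77 for control siRNA against untreated. Over windows of both libraries alone the sums differed by -0.30 and 0.61, so the 1.77 depends largely on windows listed in 1 library. Why the lists differ was not tested. The Med26 share after Cbx3 siRNA was 0% and 35.4% with unlisted windows at the lowest value, and the Cdk8 share 100% and 64.1%, by construction of that alternative. At 2-fold, 0 Pol II windows of the locus were lower, against 4.99% genome-wide. Cbx3 listed length was 200 bp in both sets and 550 to 1200 bp with either set alone. With a merging gap of 500 bp the promoter's Cbx3 set 1 region lay at percentile 98.02, against 98.10. Med26 and Cdk8 had no window of both arms, so that alternative gave no value. The comparison with regions of the same decile by signal was chosen after seeing the data. No paired analysis was possible because no antibody has more than 1 library in an siRNA arm. Low read numbers limit Cdk8, Med26 and Cbx3, whose highest windows at the locus held about 8 to 16 reads. They also limit Pol II on the Cbx3 side, where the highest windows of the siRNA arms held about 13.1 and 14.1 reads.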
